A study of Mus musculus with 20 samples.

Results

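The 6 Gata genes, Gata1 to Gata6, encode zinc finger transcription factors, and they were examined for the binding of Suz12 in mouse embryonic stem (ES) cells before and after inhibition of transcription. The genes were taken by name. A region belonged to a gene when it lay within 1 kb of either annotated end of that gene (mm10, GRCm38). Regions were made by merging the peaks of 8 Suz12 lists wherever they overlapped by 1 bp, and 4 of the 11943 regions met this rule: 1 each at Gata2, Gata3, Gata5 and Gata6. Gata1 and Gata4 had none. Since the peaks of Gata4 lay inside its long annotated span, all regions within a gene or 5 kb of it were described as well, a choice made after the data were seen; they numbered 14.

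GATA factors bind the GATA motif through paired zinc fingers, and each acts early in the choice of a lineage. Gata1, Gata2 and Gata3 are best known in blood, where Gata1 drives red cell and megakaryocyte genes, Gata2 maintains stem and progenitor cells and Gata3 directs T cell fate; Gata2 and Gata3 also act in trophoblast. Gata4, Gata5 and Gata6 act in endoderm and heart, and Gata6 starts the primitive endoderm programme in the early embryo. Undifferentiated ES cells keep most such regulators silent. Suz12 belongs to the core of PRC2, a Polycomb complex that methylates lysine 27 of histone H3 and gathers at CpG-rich promoters of silent developmental genes.

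The cells were wild-type E14 ES cells (E14-WT), a single cell line, grown in serum with leukemia inhibitory factor on gelatin, and 8 Suz12 ChIP-seq libraries were used, 2 in each of 4 groups: DRB for 12 h, triptolide for 9 h, DRB at 0 h and triptolide at 0 h. DRB (100 µM) inhibits the kinase of the elongation factor P-TEFb, and triptolide (10 µM) blocks the helicase of the initiation factor TFIIH. Each drug has its own untreated libraries. The other 12 of the 20 samples in the series were not analysed here. Between 1323926 and 7340023 reads per library were counted over the regions. The count columns of the treated libraries name lanes 3 and 6 and those of the untreated libraries lanes 1 and 4, so lane and treatment cannot be told apart. Levels are given as counts per 1e6 reads (CPM) after TMM scaling of the reads over all regions. They are shares of the Suz12 signal and not amounts of Suz12.

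Gata1, on chromosome X at positions 7959260 to 7976663, had no Suz12 peak in any of the 4 treated or 4 untreated lists, and the nearest peak of any list lay 35.6 kb away. The other five genes had peaks in all 8 lists. Promoter sequences of 300 bases (250 before and 50 after the start site) were taken from RefSeq, GRCm38.p6, for the start sites of 4 of the 6 genes: Gata1, Gata2, Gata3 and Gata5. No promoter is shown for Gata4 or Gata6. The sequences are shown because the peaks cover some of these start sites and not that of Gata1, and CG dinucleotides are in capitals.
Gata1 (chrX:7967861-7968160, minus strand): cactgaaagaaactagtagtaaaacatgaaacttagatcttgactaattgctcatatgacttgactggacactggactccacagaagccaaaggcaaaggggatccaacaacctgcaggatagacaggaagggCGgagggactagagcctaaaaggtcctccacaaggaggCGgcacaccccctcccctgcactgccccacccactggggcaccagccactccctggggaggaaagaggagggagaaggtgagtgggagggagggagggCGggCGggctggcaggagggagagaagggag
Gata2, upstream start site (chr6:88193641-88193940, plus strand): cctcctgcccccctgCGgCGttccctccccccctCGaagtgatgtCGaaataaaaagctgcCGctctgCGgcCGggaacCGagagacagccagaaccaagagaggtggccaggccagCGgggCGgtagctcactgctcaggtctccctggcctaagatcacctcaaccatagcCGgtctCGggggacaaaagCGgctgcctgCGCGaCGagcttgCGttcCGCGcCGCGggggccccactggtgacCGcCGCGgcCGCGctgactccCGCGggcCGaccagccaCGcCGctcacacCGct
Gata2, downstream start site (chr6:88198414-88198713, plus strand): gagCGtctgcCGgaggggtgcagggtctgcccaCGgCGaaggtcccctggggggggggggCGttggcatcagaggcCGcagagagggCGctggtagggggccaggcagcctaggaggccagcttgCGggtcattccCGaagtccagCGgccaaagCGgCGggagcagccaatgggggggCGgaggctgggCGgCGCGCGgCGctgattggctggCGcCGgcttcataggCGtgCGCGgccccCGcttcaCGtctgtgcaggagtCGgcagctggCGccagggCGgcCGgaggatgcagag
Gata3 (chr2:9878551-9878850, minus strand): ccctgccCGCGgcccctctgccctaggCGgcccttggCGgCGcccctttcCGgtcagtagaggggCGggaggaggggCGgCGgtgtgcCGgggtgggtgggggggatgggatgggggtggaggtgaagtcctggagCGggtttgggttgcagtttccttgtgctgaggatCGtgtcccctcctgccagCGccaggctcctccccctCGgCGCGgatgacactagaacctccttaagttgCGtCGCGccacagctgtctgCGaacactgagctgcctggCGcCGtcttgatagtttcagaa
Gata5 (chr2:180334630-180334929, minus strand): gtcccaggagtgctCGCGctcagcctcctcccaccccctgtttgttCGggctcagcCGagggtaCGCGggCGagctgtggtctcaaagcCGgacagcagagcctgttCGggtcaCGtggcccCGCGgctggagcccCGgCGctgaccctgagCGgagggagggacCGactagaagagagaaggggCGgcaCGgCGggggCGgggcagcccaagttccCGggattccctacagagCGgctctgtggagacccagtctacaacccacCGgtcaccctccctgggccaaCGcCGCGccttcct

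The motif counted was CG, which reads the same on both strands, and 95.5% of the 21045 promoters of protein-coding genes in the table hold at least 1. The Gata1 promoter held 4 CG, fewer than the median promoter (13), and 23.3% of promoters held fewer. The Gata2 promoters held 32 and 29 CG, the Gata5 promoter 26 and the Gata3 promoter 22, and the shares of promoters with fewer were 87.3%, 82.7%, 77.2% and 68.4%. All 8 lists had a peak over each start site of Gata2, Gata3 and Gata5, and no list had one over the Gata1 start site. For comparison, the promoters of genes with a region that had a peak in all 8 lists at an end held a median of 20 CG, against 12 for the other promoters.

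The peaks formed domains of different length. At Gata2 (chromosome 6, 88193891 to 88207032, plus strand) region 1 spanned 88189146 to 88202874, or 13729 bp, and covered both start sites from 4.75 kb before the gene to 8.98 kb inside it. It was wider than 99.6% of the 4281 regions with a peak in all 8 lists, called kept regions below. At Gata3 (chromosome 2, 9857078 to 9887953, minus strand) region 2 spanned 9872275 to 9886678, or 14404 bp, and held the start site; region 3 (9886750 to 9891512) lay at the annotated end beyond it and is the one that met the 1 kb rule. Gata4 (chromosome 14, 63198914 to 63271712) had 6 regions, all inside the gene, and the nearest lay 1.56 kb from an annotated end. Gata5 (chromosome 2, 180325088 to 180335503, minus strand) had a single region of 3454 bp over its start site (180332728 to 180336181). Gata6 (chromosome 18, 11052510 to 11085636) had a region of 8978 bp at one end (11047645 to 11056622) and a small one inside the gene. Of the 14 regions, 12 had a peak in all 8 lists; Gata3 region 1 had one in 2 lists and Gata4 region 3 in 1. The RNA genes Gm38708, Gata5os, Gata6os, 4930412O13Rik and 9230102O04Rik overlap Gata2 region 1, Gata5 region 1, Gata6 region 1 and Gata3 regions 2 and 3, and ChIP reads do not tell a gene from one that overlaps it.

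**Figure D1:**
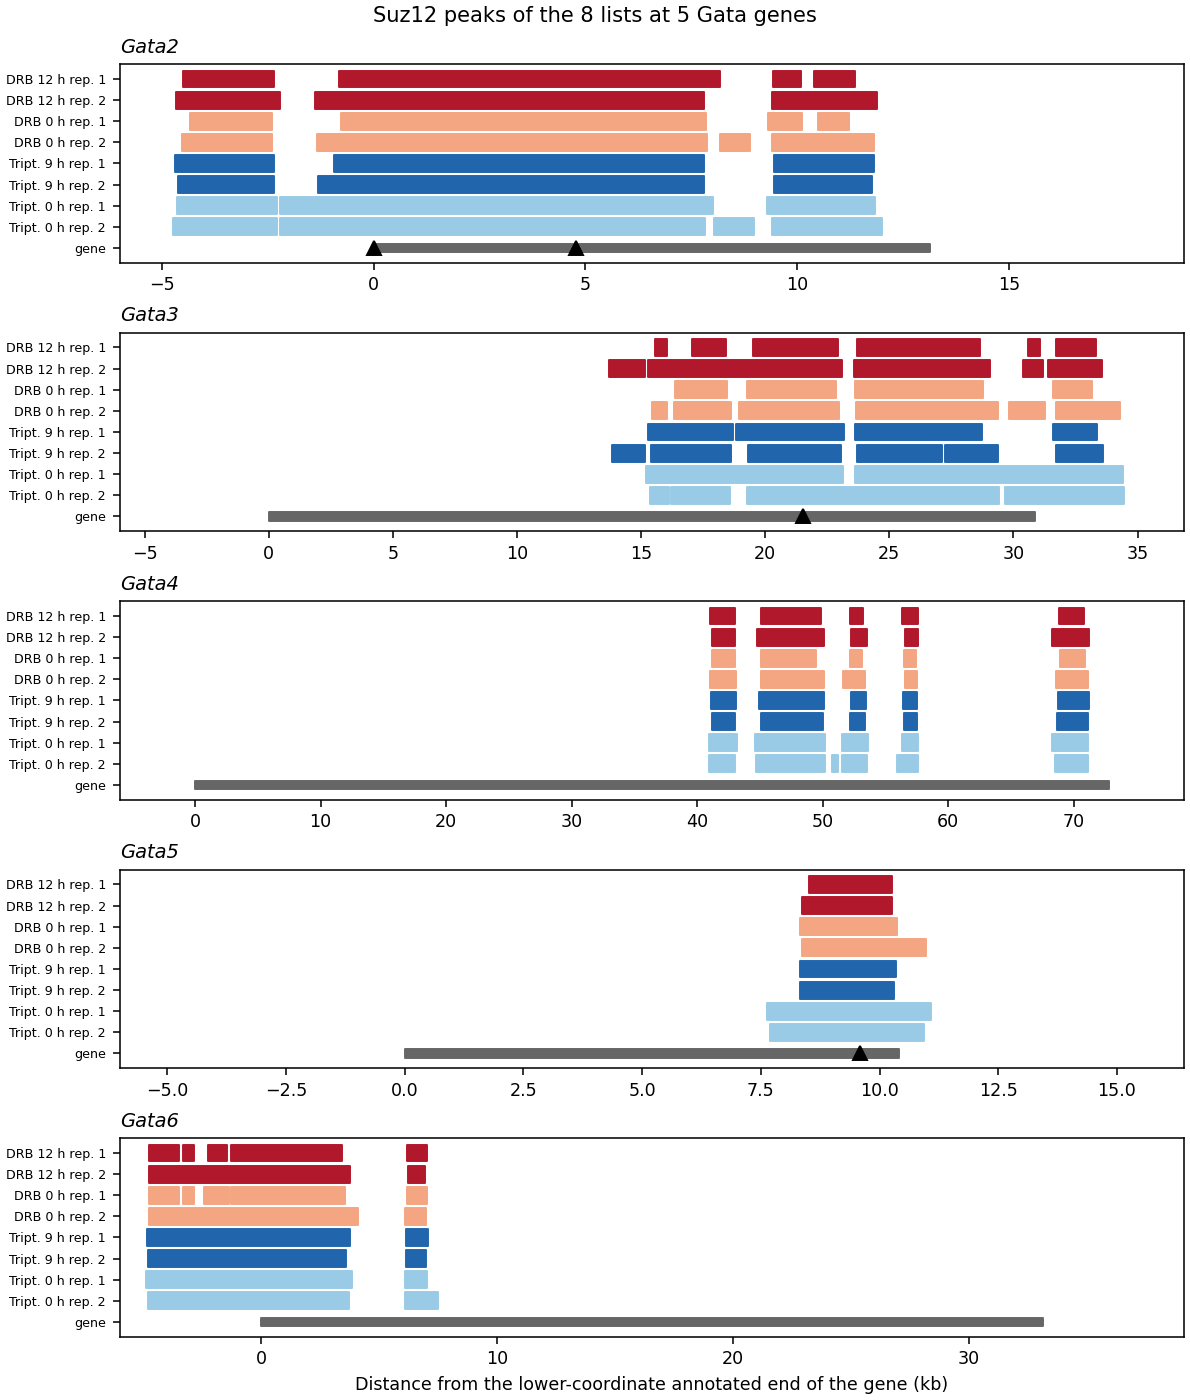
Suz12 peaks along 5 Gata genes in the 8 lists, with distance in kb from the annotated end of lower coordinate on the horizontal axis and 1 row for each list; grey bars are the annotated genes and triangles the start sites of the promoter table. All 8 lists have peaks at each of the 5 genes, and the Gata5 peak is at most 2032 bp wide in the 4 treated lists, against 2028 to 3454 bp in the 4 untreated lists.

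The number of Gata genes with a peak at an end was 4 in each treated list and 4 in each untreated list (two-sided exact permutation test over lists, p = 1). All 8 lists have the same number, so this test could give no other result. Loss of signal was therefore looked for in the counts. Each region was counted over its widest peak. That peak came from the DRB 12 h replicate 2 list at Gata3 regions 1 and 2 and Gata4 region 6. At the other Gata regions, with all 4 at gene ends, it came from an untreated list, which can favour a decrease. Over the narrowest peak instead, the 4 regions at gene ends and 12 of the 14 fell for the mean of both drugs in the test below. Of all 11943 regions, 3280 fell over the narrowest peak. The part of the interval in the size of the changes was not tested. Relative to all regions, Suz12 counts at all 4 Gata regions at gene ends were lower after either drug. In edgeR's quasi-likelihood test over all 11943 regions with Benjamini-Hochberg adjustment (threshold 0.05), 4 of 4 fell for the mean of both drugs, where 28.9% of all regions and 59.1% of the kept regions fell. A value for both drugs is that mean, here and below, and it can pass where 1 drug alone does not. For DRB 4 of 4 fell (19.2% of all regions, 42.4% of kept regions), and for triptolide 4 of 4 (21.9% and 48.7%). Of the 14 regions in the genes or 5 kb of them, 13 fell for both drugs, 10 for DRB and 13 for triptolide, and none rose; the 13 include Gata4 region 3, whose only peak is in an untreated list. When 1 library was left out these counts were 13 to 14, 8 to 12 and 8 to 13, and the triptolide count was 8 without replicate 1 of triptolide 9 h. The median log2 fold change for both drugs was -0.99 over the 4 regions and -0.75 over the 14, against -0.38 over the kept regions and 0.05 over all regions.

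The size of these changes depends on the scaling. When libraries were scaled to the sum over kept regions, the median of all regions moved to 0.39 and that of kept regions to -0.04, and the medians of the 4 and the 14 Gata regions were -0.64 and -0.40. Relative to the kept regions, then, the 4 regions at gene ends and 9 of the 14 still fell for the mean of both drugs. For that mean 11.2% of all and 25.0% of kept regions fell. For DRB alone 3 of 4 and 7 of 14 fell with this scaling (5.03% of all and 11.8% of kept regions), and for triptolide 4 of 4 and 8 of 14 (4.98% and 12.0%). The share of rising calls among all called regions was 49.2% with TMM, 67.5% with the sum of all counts and 80.8% with the kept regions. The 14 regions together held 0.303% to 0.334% of the counted reads in treated libraries and 0.446% to 0.480% in untreated libraries.

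All 4 treated libraries lay below all 4 untreated libraries at 4 of the 4 regions at gene ends and at 11 of the 14, where 25.2% of all regions and 53.0% of kept regions did so. Gata3 region 1, Gata4 region 3 and Gata4 region 5 were the exceptions.

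**Figure D2:**
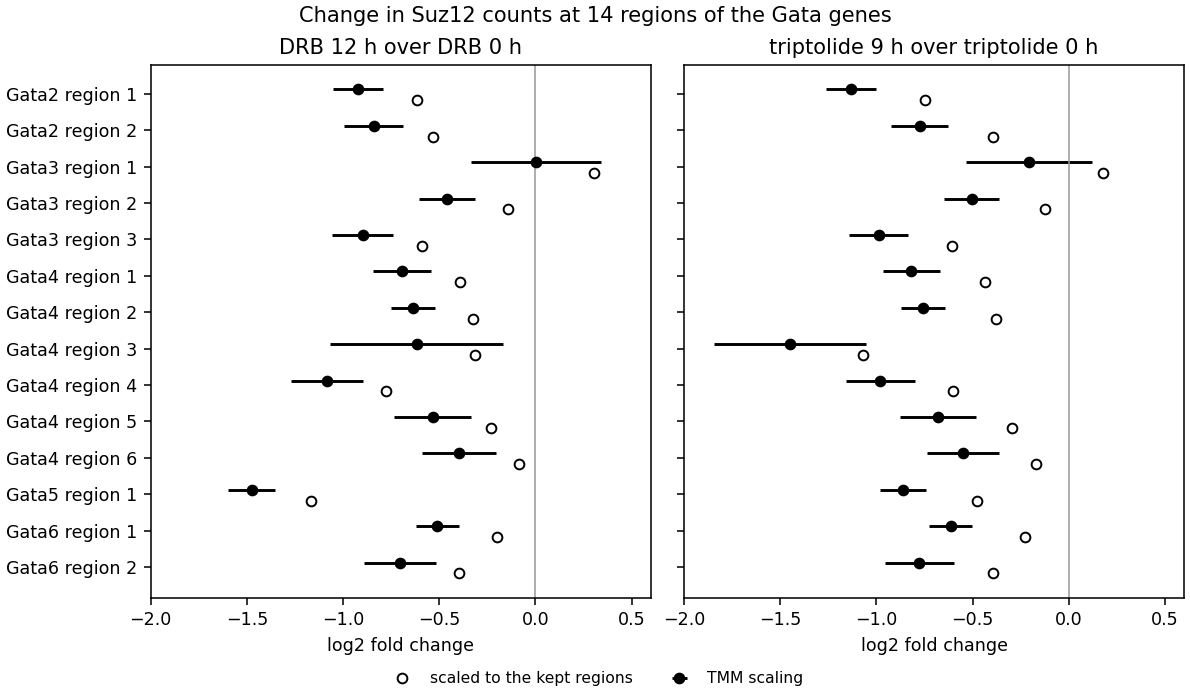
Log2 fold change of Suz12 counts at the 14 regions for DRB 12 h over 0 h (left) and triptolide 9 h over 0 h (right); filled points are TMM-scaled with bars of 1 SE, and open points are scaled to the kept regions. The lowest DRB value is that of Gata5 region 1 (-1.48), and the open points lie to the right of the filled ones in every row.

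Gata5, an endoderm and heart valve regulator, had the lowest value of the 4 regions at gene ends for DRB and for the mean of both drugs, though not for triptolide. Its region had 131 and 132 CPM after DRB, against 371 and 361 CPM in DRB 0 h cells. It had 216 and 202 CPM after triptolide, against 354 and 408 CPM in triptolide 0 h cells. No treated library reached an untreated one, and the 2 DRB libraries were the lowest of all 8. The log2 fold change was -1.48 ± 0.12 (SE) for DRB, a 2.78-fold lower count (edgeR adjusted p = 3.4e-05), and -0.86 ± 0.12 for triptolide (1.82-fold lower, adjusted p = 0.00035). Only 6 of the 4281 kept regions had a lower value under DRB, and 267 had a lower one under triptolide. For the mean of both drugs the value was -1.17 ± 0.09, with 15 kept regions lower, and -0.82 when scaled to the kept regions (adjusted p = 4.9e-06). The DRB log2 ratio was -1.51 within index ATCACG and -1.45 within index TGACCA, and the triptolide log2 ratio was -0.71 within replicate 1 and -1.01 within replicate 2.

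At Gata5 the DRB change was lower than the triptolide change by 0.61 ± 0.17 (SE) on the log2 scale, but this difference did not pass adjustment over all regions (edgeR adjusted p = 0.9995, unadjusted p = 0.0032). None of the 14 Gata regions passed this test of the difference, in edgeR or in DESeq2, and in each tool 1 of the 14, Gata5 region 1, had an unadjusted p under 0.05. Among all regions 2 of 11943 passed it in edgeR (0.0167%). The times and doses of the drugs also differ.

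**Figure D3:**
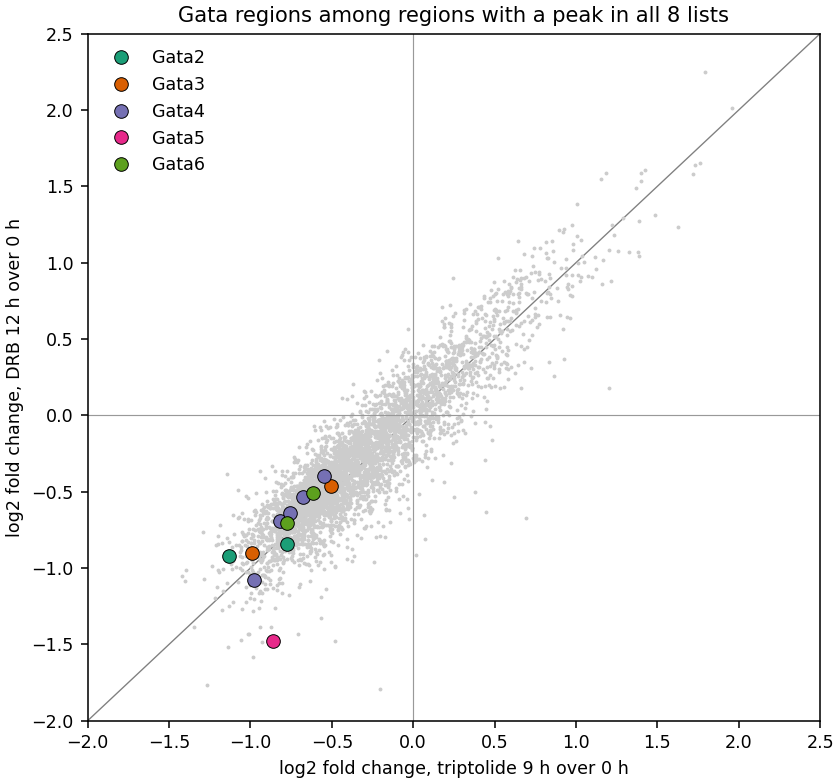
Log2 fold change for DRB (vertical axis) against that for triptolide (horizontal axis) at the 4281 kept regions (grey) and at the Gata regions among them (coloured), with the line of equality. Gata5 lies below the line at -1.48 for DRB and -0.86 for triptolide, while both Gata2 regions, region 3 of Gata3 and the others lie nearer to it.

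Gata2, which maintains blood stem cells, carried one of the strongest signals of the family. Region 1 had 777 and 631 CPM after DRB, against 1473 and 1198 CPM in DRB 0 h cells. It had 576 and 600 CPM after triptolide, against 1213 and 1366 CPM in triptolide 0 h cells. The highest treated library (777 CPM) was well under the lowest untreated one (1198 CPM). The log2 fold change was -0.92 ± 0.13 for DRB (1.90-fold lower, edgeR adjusted p = 0.00047) and -1.13 ± 0.13 for triptolide (2.19-fold lower, adjusted p = 0.00013). For both drugs it was -1.03 ± 0.09, with 54 of the 4281 kept regions lower, and -0.68 when scaled to the kept regions (adjusted p = 7.6e-06). Region 2, near the other end of the gene (88203192 to 88205887), had 54.8 and 68.2 CPM after DRB, against 115 and 109 CPM in DRB 0 h cells, and 69.2 and 66.0 CPM after triptolide, against 118 and 114 CPM in triptolide 0 h cells. It fell by 0.81 ± 0.11 on the log2 scale for both drugs (adjusted p = 6.4e-05).

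Gata3, the T cell regulator, had 3 regions. Region 2, over the start site, had 362 and 497 CPM after DRB, against 626 and 563 CPM in DRB 0 h cells, and 487 and 435 CPM after triptolide, against 680 and 627 CPM in triptolide 0 h cells. Its log2 fold change was -0.48 ± 0.10 for both drugs (edgeR adjusted p = 0.0015), the smallest decrease but one among the 13 that passed. Scaled to the kept regions it was -0.13 and did not pass (adjusted p = 0.293), and over its narrowest peak it was -0.41 (adjusted p = 0.118). For DRB alone the value of -0.46 (adjusted p = 0.026) did not pass without the DRB 12 h library of index ATCACG (-0.26, adjusted p = 0.141) or without the DRB 0 h library of index ATCACG (-0.39, adjusted p = 0.129) or index TGACCA (-0.54, adjusted p = 0.063). For triptolide the value of -0.50 (adjusted p = 0.014) likewise did not pass without replicate 1 (adjusted p = 0.060) or replicate 2 (adjusted p = 0.168) of triptolide 9 h, or without replicate 1 of triptolide 0 h (adjusted p = 0.097).

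Region 3 of Gata3, at the annotated end, had 99.2 and 133 CPM after DRB, against 196 and 238 CPM in DRB 0 h cells, and 134 and 128 CPM after triptolide, against 268 and 251 CPM in triptolide 0 h cells. The groups did not overlap. It fell by 0.94 ± 0.11 on the log2 scale for both drugs (edgeR adjusted p = 2.8e-05), and by 0.60 when scaled to the kept regions. Whether region 2 and region 3 changed by different amounts was not tested. Region 1 of Gata3 was weak, with 13.2 to 38.1 CPM in treated libraries and 24.7 to 36.8 CPM in untreated libraries, and it did not pass for either drug. Its value of -0.10 ± 0.24 for both drugs turned positive when scaled to the sum of all counts or to the kept regions.

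Gata6, the primitive endoderm regulator, kept the highest level after treatment. Region 1 had 814 and 737 CPM after DRB, against 1164 and 1045 CPM in DRB 0 h cells. It had 796 and 767 CPM after triptolide, against 1110 and 1282 CPM in triptolide 0 h cells. The groups did not overlap, although the lowest untreated library (1045 CPM) was nearer to the treated ones than at Gata2. The log2 fold change was -0.56 ± 0.08 for both drugs (1.48-fold lower, edgeR adjusted p = 9.0e-05), -0.51 ± 0.11 for DRB and -0.61 ± 0.11 for triptolide, and 1238 of the 4281 kept regions had a lower value for both drugs. Scaled to the kept regions it was -0.22 for both drugs (adjusted p = 0.0048), and for DRB -0.20, which did not pass (adjusted p = 0.055). Region 2 of Gata6 (11058594 to 11059995) fell by 0.74 ± 0.13 on the log2 scale, with 30.8 to 44.1 CPM in treated libraries and 51.8 to 81.6 CPM in untreated libraries.

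Gata4, a heart and endoderm regulator, had 5 regions with a peak in all 8 lists, and these 5 fell for the mean of both drugs. Region 3 had a peak in 1 list only, an untreated one, so it was found through the group where it was higher and its decrease is given as a description. Region 2, the widest (63243554 to 63249107), had 293 and 309 CPM after DRB, against 485 and 454 CPM in DRB 0 h cells, and 340 and 292 CPM after triptolide, against 525 and 544 CPM in triptolide 0 h cells. It fell by 0.70 ± 0.08 on the log2 scale (edgeR adjusted p = 3.0e-05). Region 1 had a value of -0.76 ± 0.11 and region 4 one of -1.03 ± 0.13, the lowest of the 5 that had a peak in all lists. Region 4 had 39.6 and 56.4 CPM after DRB, against 89.6 and 115 CPM in DRB 0 h cells, and 63.3 and 61.4 CPM after triptolide, against 126 and 119 CPM in triptolide 0 h cells. Regions 5 and 6 had values of -0.61 ± 0.14 and -0.47 ± 0.13. For DRB alone regions 3, 5 and 6 did not pass (adjusted p = 0.293, 0.052 and 0.122). Scaled to the kept regions, regions 1, 2 and 4 passed for both drugs and regions 3, 5 and 6 did not (adjusted p = 0.054, 0.103 and 0.483).

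Levels between genes were compared as CPM per kb of the counted interval, at the densest region of each gene. In untreated cells Gata6 region 1 (129 ± 11.3, SD, n = 4) and Gata2 region 1 (128 ± 12.8) were highest, followed by Gata5 region 1 (108 ± 7.04), Gata4 region 1 (96.1 ± 6.59) and Gata3 region 2 (79.9 ± 6.13). Over the 4 untreated libraries the ranges of neighbours in this order overlapped, except those of Gata4 and Gata3. After treatment Gata6 had 87.6 ± 3.81 CPM per kb (SD, n = 4), Gata2 63.2 ± 8.82, Gata4 57.0 ± 7.13, Gata3 57.0 ± 7.92 and Gata5 49.3 ± 13.1. Gata5 had 38.1 ± 0.244 CPM per kb after DRB (SD, n = 2) and 60.6 ± 2.89 after triptolide, against 106 ± 2.20 in DRB 0 h cells and 110 ± 11.2 in triptolide 0 h cells. Over these intervals its DRB libraries lay under those of the other 4 genes, whose lowest was 46.3 CPM per kb at Gata3. Its triptolide libraries overlapped those of Gata2 and Gata3. Over the peaks of the DRB 0 h replicate 1 list, Gata5 peak 1 had 60.8 and 57.5 CPM per kb after DRB. Gata4 peak 1 had 79.7 and 60.9 there, and Gata3 peak 1 had 58.8 and 78.7. Over all 4 treated libraries Gata5 peak 1 had 75.3 ± 18.8 (SD), above Gata2 peak 2 (72.6 ± 11.2), Gata3 peak 3 (73.0 ± 4.50) and Gata4 peak 1 (67.2 ± 8.53). The untreated order also depended on the interval. Over these peaks the untreated mean was 186 CPM per kb at Gata6 peak 4, 164 at Gata5 peak 1 and 146 at Gata2 peak 2. Gata5 thus stood above Gata2 there, and the untreated range of Gata5 peak 1 overlapped those of both other peaks. Among the kept regions, 50.0% had a lower treated level than Gata5 region 1, and 89.8% had a lower untreated level. For Gata6 region 1 these shares were 92.9% and 96.2%, and for Gata2 region 1 they were 72.7% and 96.0%.

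**Figure D4:**
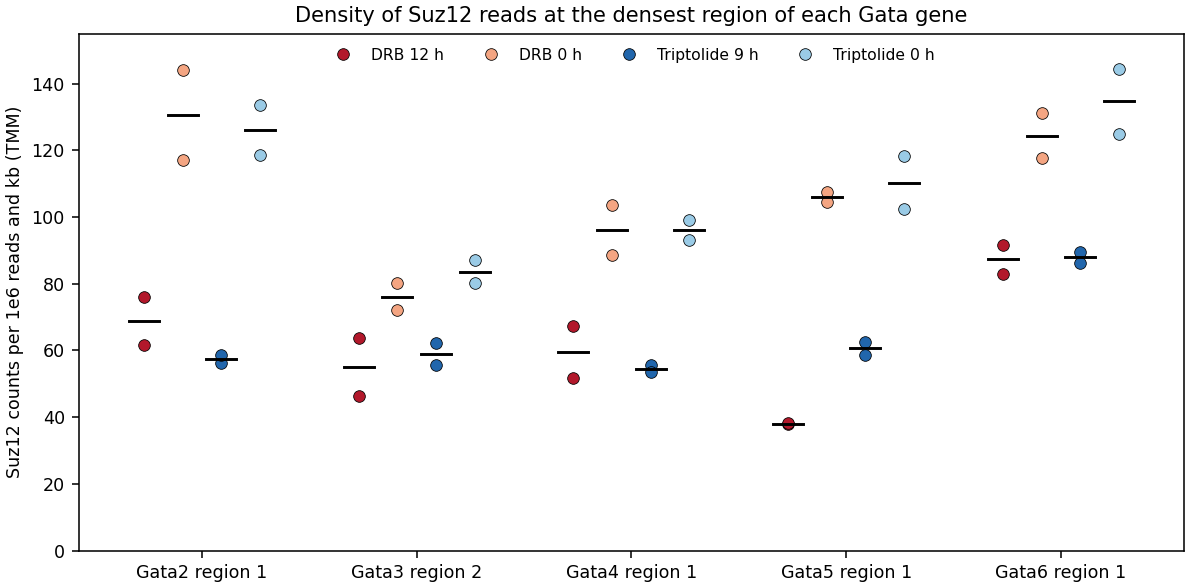
CPM per kb in each of the 8 libraries at the densest region of each Gata gene; points are libraries, horizontal lines are means of 2, and colours are the groups. Gata5 is at 38.1 CPM per kb after DRB and 60.6 after triptolide, against 106 and 110 in the matching 0 h cells, and Gata6 is the highest of the treated values.

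Each locus was divided into the peaks of a single untreated list, replicate 1 of DRB 0 h, which gave 19 peaks. Levels were compared as CPM per kb without a test. Intervals taken from an untreated list can favour lower treated values, so the ratios below are descriptions. At Gata2 the peak upstream of the gene, 4.33 to 2.40 kb before its start, had 67.4 ± 3.30 CPM per kb in treated libraries and 89.6 ± 4.21 in untreated libraries (SD, n = 4 each), a log2 ratio of -0.41. The main peak, which covers both start sites, had 72.6 ± 11.2 in treated and 146 ± 15.0 in untreated libraries, a log2 ratio of -1.01. The 2 peaks thus stood at similar levels after treatment although the main one was higher before.

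At Gata6 the peak over the annotated end had 131 ± 13.9 CPM per kb in treated libraries and 186 ± 20.4 in untreated libraries, a log2 ratio of -0.50. The 3 peaks upstream of it had log2 ratios of -0.82, -0.87 and -0.70. At peaks 1 to 3 the library of index ATCACG at 12 h of DRB was the lowest, and at peak 3 it had 19.9 CPM per kb, against 37.3 to 57.5 in the other treated libraries. At Gata3 the 3 peaks of region 2 had log2 ratios of -0.41, -0.54 and -0.52 and the peak of region 3 one of -0.74. The third of these peaks of region 2 (9880711 to 9885846) lies outside the interval counted in the test, and it had 73.0 ± 4.50 CPM per kb in treated and 105 ± 6.60 in untreated libraries.

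**Figure D5:**
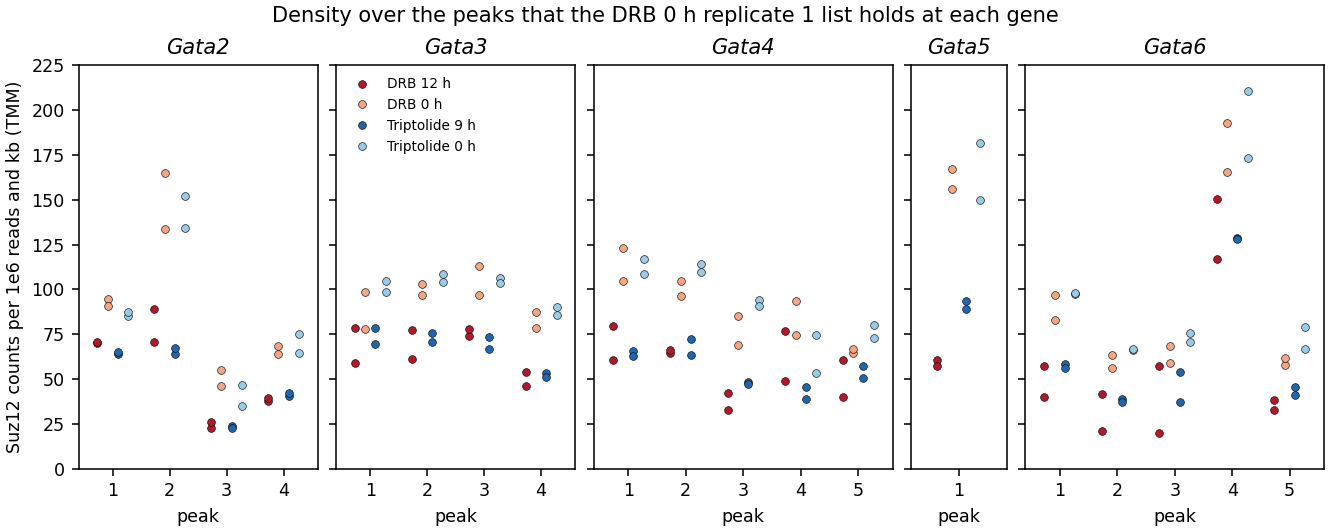
CPM per kb in each library over the 19 peaks that the DRB 0 h replicate 1 list holds at the Gata genes, numbered by rising coordinate; colours are the groups. Peak 2 of Gata2 shows a log2 ratio of treated to untreated means of -1.01 and peak 1 one of -0.41, and peak 4 of Gata6 has -0.50.

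Over the Gata genes together, the length covered by peaks did not pass its test. The peaks at the ends of the Gata genes covered 20640 ± 2157 bp in treated lists and 23866 ± 4658 bp in untreated lists (SD, n = 4 each), a ratio of 0.875 of geometric means (two-sided exact permutation test, p = 0.343, the smallest p possible being 0.0286). The shortest untreated value, 17052 bp, is that of the DRB 0 h replicate 1 list, and without it the ratio was 0.787 (exact p = 0.0286, the smallest possible with 7 lists). Gata3, of which this scope holds the peaks of region 3, had 1743 to 2944 bp in treated lists and 1564 to 4760 bp in untreated lists, a ratio of 0.575, and the groups overlapped. The ratios of Gata2 and Gata6 at the ends were 0.946 and 0.977. At Gata5 the single peak was 1749 and 1884 bp wide after DRB, against 2028 and 2623 bp in the DRB 0 h lists, and 2032 and 1982 bp after triptolide, against 3454 and 3238 bp in the triptolide 0 h lists. The groups did not overlap within either drug, but over all 8 lists 1 treated value exceeded 1 untreated value by a few bases. Upstream of the start site the Gata5 peak reached 664 and 671 bp after DRB, against 772 and 1393 bp in DRB 0 h lists, and 757 and 721 bp after triptolide, against 1502 and 1342 bp in triptolide 0 h lists. The ratio for Gata5 was 0.674. Over the whole gene or 5 kb of it, the ratios of the other four genes lay between 0.920 and 0.952, and the median over 3911 genes with a peak in all 8 lists was 1.08. In this wider scope 0.332% of those genes had a lower ratio than Gata5. In 0.486% of them all treated lists lay below all untreated lists, which was the case for none of the 5 Gata genes. A peak's width depends on the peak caller's threshold and on depth, and their part in this was not tested.

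The genes whose level was most like that of each Gata region at a gene end were found among all protein-coding genes. The measure was the mean absolute difference of log2(CPM per kb + 1) over the 8 libraries. Gata4, with no region at an end, was not compared. For Gata2 they were Fev (0.11) and Shh (0.11), for Gata3 region 3 Pkib (0.070) and Pcdhb7 (0.071), for Gata5 Bsx (0.16) and Sox17 (0.19), and for Gata6 Tril (0.039) and Gm42517 (0.040). Among these regions the distance was thus greatest for Gata5. Bsx had log2 fold changes of -0.89 for DRB and -0.87 for triptolide, and this region of Sox17 -0.94 and -0.95, so neither had the gap between the drugs seen at Gata5.

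Partners and targets of GATA factors were read from the same fit, in 6 gene lists. Of the genes named below, Mta2 had a peak in 3 of the peak lists, Foxa3 and Klf1 in 4, and Myocd and Ets2 in 6. Their regions may have been found through the group where they were higher, so their changes are given as descriptions. Among 11 GATA-type zinc finger proteins and FOG cofactors, 5 had no peak in any list, and of 6 regions 1 rose, 1 fell and 4 did not pass, where 28.0% of all regions rose and 28.9% fell. Zfpm2, the FOG cofactor of Gata4 in the heart, fell (-0.59 ± 0.10, edgeR adjusted p = 0.00034), and Mta2, a subunit of the NuRD complex with a GATA-type zinc finger, rose (0.82 ± 0.18, adjusted p = 0.0016). Zfpm1, the FOG cofactor of Gata1, had 271 CPM in treated and 299 CPM in untreated libraries and did not pass (-0.14 ± 0.09). The list's median was 0.10, against 0.05 over all regions. With the kept regions as the scale, 3 rose and 1 fell, where 47.4% of all regions rose and 11.2% fell.

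The cardiac regulators were the list with the lowest median, -0.59, against -0.38 for the kept regions. Of 10 regions 9 fell and 1 rose, where 59.1% of kept regions fell (28.9% of all). Among the 4281 kept regions 440 rose, and 28.0% of all regions did. Of the 10 regions 9 are kept regions. Myocd, a coactivator for smooth and heart muscle genes, had 21.8 CPM in treated and 47.2 CPM in untreated libraries (-1.13 ± 0.14, edgeR adjusted p = 4.3e-05), and Tbx5, a heart and forelimb factor, 79.0 and 159 CPM in the same order (-0.98 ± 0.15, adjusted p = 0.00015). Srf, the serum response factor, rose (0.34 ± 0.13, adjusted p = 0.035). Mesp1, an early heart mesoderm factor, fell by 0.36 ± 0.09 on the log2 scale, and its value was -0.01 when scaled to the kept regions (adjusted p = 0.900). With that scaling 7 of the 10 fell and 1 rose, where 25.0% of kept and 11.2% of all regions fell. Among the 4281 kept regions 1102 rose with it, and 47.4% of all regions did.

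Of 15 regions of endoderm regulators and markers (22 genes, 6 with no peak), 2 rose and 9 fell, with a median of -0.39. All but the Foxa3 region are kept regions, of which 59.1% fell, against 28.9% of all. Among the 4281 kept regions 440 rose, and 28.0% of all regions did. Sox17 (-0.72 ± 0.10 at another of its regions than the one above, edgeR adjusted p = 7.8e-05) and Foxa1 (-0.65 ± 0.13, adjusted p = 0.0014), both endoderm transcription factors, had the lowest values, and Foxa3 (0.69 ± 0.18, adjusted p = 0.0066) and Hhex (0.28 ± 0.09, adjusted p = 0.021) rose. With that scaling 4 rose and 4 fell, and Foxa1 no longer passed (edgeR adjusted p = 0.096). There 25.0% of kept regions fell, and 1102 of 4281 kept regions and 47.4% of all regions rose.

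Of 14 regions of blood and endothelial genes (24 genes, 10 with no peak), 2 rose and 7 fell, with a median of -0.25. Of these regions 12 are kept regions, of which 59.1% fell, against 28.9% of all. Among the 4281 kept regions 440 rose, and 28.0% of all regions did. Ikzf1, a lymphoid zinc finger factor (-0.78 ± 0.13, edgeR adjusted p = 0.00030), and Erg, an endothelial ETS factor (-0.74 ± 0.15, adjusted p = 0.0013), had the lowest values. Klf1, a red cell factor that acts with Gata1 (0.84 ± 0.19, adjusted p = 0.0027), and Kit, the stem cell factor receptor (0.34 ± 0.10, adjusted p = 0.0095), rose. With that scaling 6 rose and 4 fell, and Erg no longer passed (edgeR adjusted p = 0.064). There 1102 of 4281 kept regions rose and 25.0% fell, and 47.4% of all regions rose and 11.2% fell.

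Of 11 regions of trophoblast regulators 2 rose and 7 fell (median -0.30), and of 10 regions of Gata3 partners in T cells, kidney and ear 1 rose and 7 fell (median -0.46). The kept regions number 10 and 9 in these lists, and 59.1% of kept and 28.9% of all regions fell. Among the 4281 kept regions 440 rose, and 28.0% of all regions did. Cdx2, a trophectoderm factor (-0.57 ± 0.08, edgeR adjusted p = 6.1e-05), and Hand1, a giant cell and heart factor (-0.54 ± 0.08, adjusted p = 9.6e-05), fell, and Tead4 (0.93 ± 0.12, adjusted p = 4.7e-05) and Ets2 (0.51 ± 0.13, adjusted p = 0.0043) rose. Bcl11b, a T cell commitment factor (-0.77 ± 0.10, adjusted p = 7.7e-05), and Pax2, a kidney factor (-0.68 ± 0.07, adjusted p = 1.8e-05), fell, and Tcf7, another T cell factor, rose (0.60 ± 0.13, adjusted p = 0.0023). Tbx21, which directs another T cell fate than Gata3, fell by 0.36 ± 0.10 on the log2 scale and had -0.02 when scaled to the kept regions (adjusted p = 0.861). With that scaling 2 rose and 2 fell in the trophoblast list, and 2 rose and 3 fell among the Gata3 partners. There 25.0% of kept and 11.2% of all regions fell, and 1102 of 4281 kept regions and 47.4% of all regions rose.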

How the data were processed

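Suz12 ChIP-seq of E14 ES cells was analysed from 8 deposited peak lists and the counts they carry. Per the submitters' processing notes, the authors used Bowtie and MACS on mm10 (GRCm38), with versions not given in the sources used here. Per the file headers, the deposited counts are raw whole-number read counts over the peaks of 1 library in 13 columns, of which 8 were used, and 5 were not. DRB columns carry an index and triptolide columns a replicate number; DRB lists are named by replicate, and the series' design text calls the replicates biological. Positions were read as BED and are given from 1.

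Peaks of the 8 lists were merged, and counts over the widest peak of each region were tested with edgeR 4.0.16 (quasi-likelihood, TMM, 4 groups, no filter, Benjamini-Hochberg over all 11943 regions) in R 4.3.3. The fit was also run on counts simulated from the spread estimated in these data, with far fewer changed regions than were called here. That run does not show how often the calls here are wrong, and its outcome is not given. A region was called with adjusted p under 0.05. DESeq2 1.42.0, other scalings, filterByExpr, narrowest peaks, wider merging, blocks and leaving out each library were alternatives. Covered length was compared by exact permutation. Gene positions and promoters came from the RefSeq tables of GRCm38.p6, in which all 6 genes were found. In these 2-library groups, precision is limited by the number of libraries; within groups, counts varied by 2.47 to 8.65 times sampling noise (chi-square per degree of freedom), the most in DRB 12 h. The region of Gata3 named beside its nearest genes is that of the 1 kb rule. From each list the 2 highest and 2 lowest values that passed were named; Zfpm1 was chosen after its value was seen. The genes and lists were chosen with earlier results of these data known.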

Additional observations from a re-analysis of the deposited data

How the results depend on the processing

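Of 658 log2 values of the 14 Gata regions under alternatives, 596 kept their direction and side of the threshold, 42 no longer passed, 5 newly passed and 15 changed sign. All 15 are Gata3 region 1, which was not called in the main test: for both drugs 0.10 with the sum of all counts, 0.24 with the kept regions and -0.64 to 0.13 when 1 library was left out (0.13 without the DRB 12 h library of index ATCACG); for triptolide 0.030 and 0.18 with the same 2 scalings; for DRB, where the main value was 0.0024, -0.070 with DESeq2, -0.014 with narrowest peaks, -0.022 with the libraries of 1 drug alone, -0.00039 with the replicate block, and -1.10 to 0.45 when 1 library was left out. The lowest, -1.10 without the DRB 12 h library of index TGACCA, passed (edgeR adjusted p = 0.0069). The cause was not tested.

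Leaving out each library kept 4 of 4 regions at gene ends called for both drugs, DRB and triptolide. Of the 14 regions it left 13 to 14, 8 to 12 and 8 to 13 called. Regions called in all ranged from 5616 to 7315 for both drugs (6790 with all libraries), 2292 to 4898 for DRB (4453), 2429 to 5946 for triptolide (4918) and 0 to 7 for the drug difference (2). The lowest DRB count was without the DRB 0 h library of index TGACCA, and the triptolide count was 2429 to 3121 without any 1 of the 4 triptolide libraries. DRB calls were 2962 with the libraries of 1 drug alone. Calls of the drug difference were 0 when scaled to the kept regions and 7 with the DRB index as a block. For triptolide, 8 of 14 Gata regions were called when scaled to the kept regions, against 13. The log2 ratio of covered length was -0.35 to -0.12 when 1 list was left out (-0.19 with all), and it passed without DRB 0 h replicate 1 (-0.35).

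Same-numbered triptolide libraries deviated together (correlation 0.394), as did DRB libraries of the same index (0.375), but 2 pairs of each do not show pairing. With the replicate number as a block, 0 regions passed for the drug difference and the Gata calls at gene ends stayed at 4 for each drug. With the DRB index as a block, 5907 regions were called for DRB, against 4453 in the main test. Gata4 regions 5 and 6 then newly passed for DRB (edgeR adjusted p = 0.0044 and 0.024). The region set within the genes or 5 kb and the DRB index block were chosen after the data were seen.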
